A study of Arabidopsis thaliana with 12 samples.

Results

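AT2G47390 and AT2G27630 are the 2 genes described here, each read by 1 probe of an Arabidopsis thaliana array that held 3439 probes. AT2G47390 encodes the chloroplast glutamyl endopeptidase, and AT2G27630 encodes a protein related to ubiquitin carboxyl-terminal hydrolases. Each gene is the only one annotated to its probe, which was true of 692 probes for 691 genes, and neither is listed on a probe with several genes. They were chosen by their log2 differences, which stood in places 1 and 3 among the single-gene probes called higher in the toc90 mutant, so their own difference between the groups is given as a description, with no test.

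The groups were 6 readings of the toc90 mutant and 6 readings of the wild type (WT), both in ecotype Columbia 0 and each numbered 1 to 6. Per the labels, the mutant has an impaired import of proteins through the outer envelope of chloroplasts. Neither the type of allele nor the tissue, the age of the plants or their growth is stated in the labels. The labels do not say whether readings came from separate plants or hybridisations, so p-values measure the spread between these readings, which may be technical. Neighbouring numbers, whose means and correlations are given below, may be repeat readings of 1 hybridisation, and each group would then hold 3 independent samples and not 6.

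As background, most chloroplast proteins are made in the cytosol as precursors and enter through receptor and channel complexes of the envelope, and TOC90 belongs to the family of receptor GTPases of the outer membrane. Inside the stroma, proteases and peptidases remove transit peptides, degrade the resulting fragments and break down damaged or unneeded proteins. The glutamyl endopeptidase is a serine peptidase of the stroma that cleaves after glutamate. Ubiquitin hydrolases act outside the stroma, where they remove ubiquitin from proteins and from ubiquitin chains. AT2G27630 is named for its similarity to them, and that name says nothing of whether the protein is active.

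The readings differed between the groups in their dim probes. The share of probes listed at 0 ran from 20.3% to 33.4% over the toc90 readings and from 13.5% to 17.3% over the WT readings. The median value ran from 0.0593 to 0.0687 in toc90 and from 0.151 to 0.157 in WT, in the arbitrary units of the deposited values, which reach 100. Every WT value of both genes lay below the median of its reading. The part of these differences in the values of either gene was not tested. Readings with neighbouring numbers (1 and 2, 3 and 4, 5 and 6) had nearly the same mean value over all probes in toc90. These means were 0.756 and 0.755, 1.06 and 1.06, and 0.736 and 0.736. In WT the means were less alike, at 0.806 and 0.783, 1.02 and 1.03, and 0.781 and 0.768. The mean of WT reading 2 was closer to that of reading 5 than to that of reading 1. In WT, deviations from the group mean correlated at 0.43 to 0.52 between neighbouring numbers over 1474 probes without zeros, against -0.51 to -0.18 between other numbers. In toc90 the same correlations ran from -0.08 to 0.35 and from -0.37 to -0.14. Subtracting a mean taken over the same 6 readings shifts these correlations downwards, so the negative values are partly built in. The number of arrays limits the precision.

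AT2G47390 was split within the mutant. Its values in toc90 were 0 in readings 1, 3 and 5, and 0.0610, 0.253 and 0.136 in readings 2, 4 and 6. In WT they were 0.0127, 0.0422, 0.0172, 0.0186, 0.0128 and 0.0417 in readings 1 to 6. The mutant readings therefore lay on both sides of the wild type, with 3 of 6 above every WT reading and 3 of 6 below every WT reading. Of all 3439 probes, 9.94% had at least 3 toc90 readings above every WT reading.

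The mean of AT2G47390 was 0.0750 ± 0.103 in toc90 and 0.0242 ± 0.0139 in WT (SD, n = 6 each), a ratio of 3.10. The difference of 0.0508 was smaller than the pooled spread of 0.0732 (SD) between readings. The medians were 0.0305 in toc90 and 0.0179 in WT. Reading 4 carried much of the mean, since the difference was 0.0151 without it. Over all probes with a WT mean above 0, 5.02% had a ratio at least as large.

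AT2G27630 was more uniform. Its values in toc90 were 0.0508, 0.0254, 0.0762, 0.0400, 0.0342 and 0 in readings 1 to 6. In WT they were 0.00904, 0.0176, 0.00997, 0, 0 and 0. Of the toc90 readings, 5 of 6 lay above every WT reading, and the exception was reading 6, listed at 0 as were WT readings 4 to 6. That 5 or 6 toc90 readings lie above all those of WT was seen for 2.59% of all probes.

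The mean of AT2G27630 was 0.0378 ± 0.0255 in toc90 and 0.00609 ± 0.0073 in WT (SD, n = 6 each), a ratio of 6.20 that 3.22% of probes with a WT mean above 0 reached. The difference of 0.0317 was larger than the pooled spread of 0.0187 (SD) between readings. The medians were 0.0371 in toc90 and 0.00452 in WT. With each reading left out in turn the difference ran from 0.0240 to 0.0392.

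**Figure D1:**
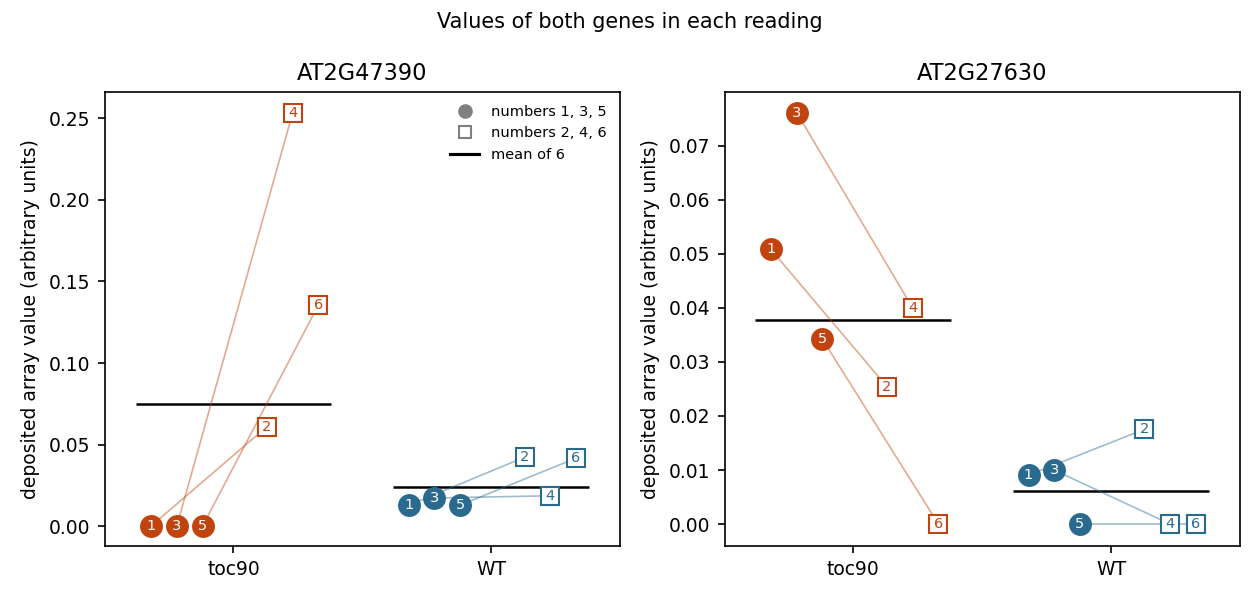
Deposited array values (arbitrary units) of AT2G47390 and AT2G27630 in the 6 toc90 and 6 WT readings. Filled circles are readings 1, 3 and 5, open squares readings 2, 4 and 6, thin lines join neighbouring numbers, and horizontal bars are means of 6. For AT2G47390 the 3 filled toc90 points lie at 0 and the 3 open ones between 0.0610 and 0.253, while for AT2G27630 5 of 6 toc90 points lie above every WT point.

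Since the columns differ in scale, the place of each gene within its own reading was also taken. AT2G47390 exceeded 49.6%, 74.2% and 65.5% of the probes in toc90 readings 2, 4 and 6, and between 15.5% and 23.1% in the WT readings. In toc90 readings 1, 3 and 5, where it was at 0, it exceeded 0%, below every WT reading. AT2G27630 exceeded 37.1% to 51.4% of the probes in toc90 readings 1 to 5, and 16.8%, 18.1% and 18.8% in WT readings 1 to 3. It exceeded 0% in toc90 reading 6 and in WT readings 4 to 6, where it was at 0. Part of the gap between the positive readings of the groups is fixed by the zeros. Any positive value exceeds the share of probes at 0, which was larger in every toc90 reading than in the WT readings.

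Separating odd from even reading numbers, a step taken after the values had been seen, gave opposite directions for AT2G47390. In readings 2, 4 and 6 its mean was 0.150 ± 0.0970 in toc90 and 0.0342 ± 0.0135 in WT (SD, n = 3 each), a ratio of 4.39. In readings 1, 3 and 5 it was listed at 0 in every toc90 reading and had a mean of 0.0142 ± 0.00258 in WT (SD, n = 3). The groups did not overlap in either set. On the log2 scale after adding an offset of 0.0274, the difference was 1.40 in the even numbers and -0.60 in the odd ones. The value in the odd numbers is the lowest this scale allows for the gene, because all 3 mutant values there were at 0. The median over all probes was -0.53 in the even numbers and -0.52 in the odd ones. In the odd numbers the difference of AT2G47390 was therefore close to that of the array. Its odd WT values, from 0.0127 to 0.0172, lay below the offset. The difference between odd and even numbers was not tested.

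This combination was uncommon on the array. It was taken from the values of AT2G47390, which is among the probes counted, so its share is a description and not a test. Of 3439 probes, 8 (0.233%) had all odd toc90 readings below the odd WT readings and all even ones above the even WT readings, and 10 (0.291%) had the reverse. Toc90 values of 0 in readings 1, 3 and 5 together with positive values in 2, 4 and 6 occurred for 38 probes (1.1%), against 4 probes (0.116%) for the same pattern in WT. Every toc90 reading had a larger share of probes at 0 than the WT readings, which favours such a pattern in toc90. The part of that share in these counts was not tested. In WT the even readings of AT2G47390 were also above their odd neighbours in all 3 pairs. An even reading above its odd neighbour in every pair of both groups was seen for 3.63% of probes.

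AT2G27630 kept 1 direction in both sets. In readings 1, 3 and 5 its mean was 0.0537 ± 0.0211 in toc90 and 0.00634 ± 0.00551 in WT (SD, n = 3 each), with no overlap, as for 3.23% of all probes. In readings 2, 4 and 6 it was 0.0218 ± 0.0203 in toc90 and 0.00585 ± 0.0101 in WT (SD, n = 3 each), and these readings overlapped. Its odd toc90 readings were above their even neighbours in all 3 pairs, opposite to AT2G47390, and 13.9% of all probes shared that order. The 2 genes had a Spearman correlation of -0.33 over the 12 readings, which share columns and scale.

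**Figure D2:**
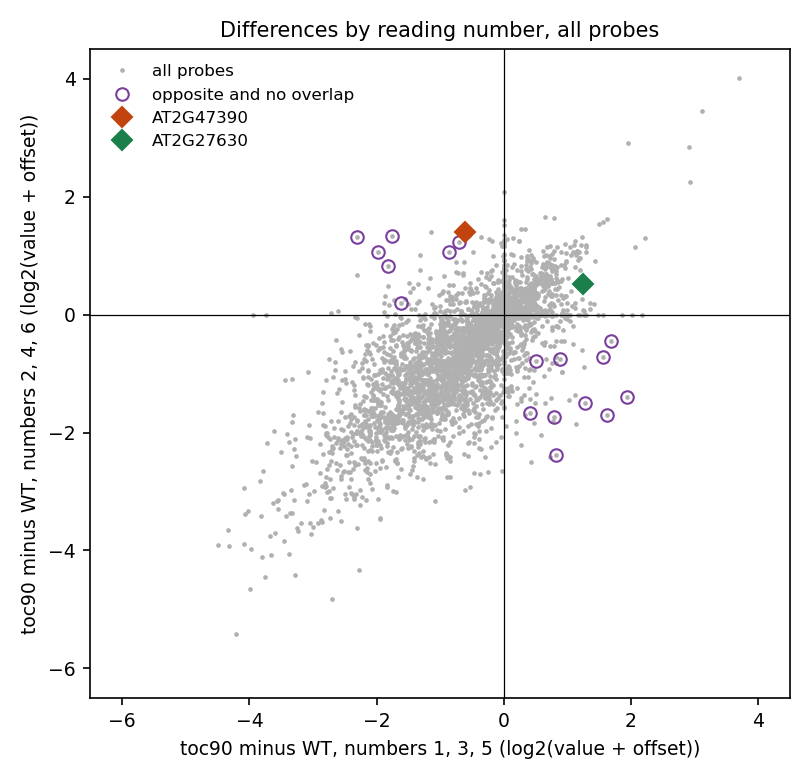
Difference of toc90 minus WT for each of 3439 probes, as the mean of log2(value + 0.0274), in readings 1, 3 and 5 (x axis) and in readings 2, 4 and 6 (y axis). Rings mark the probes with opposite differences and no overlap in either set. AT2G47390 (orange) lies at -0.60 and 1.40, and AT2G27630 (green) at 1.25 and 0.51.

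With neighbouring numbers averaged and zeros counted as values, both genes were higher in the mutant in all averages. AT2G47390 had averages of 0.0305, 0.127 and 0.0678 in toc90 and of 0.0275, 0.0179 and 0.0272 in WT. The lowest mutant average of this gene exceeded the highest WT average by a small margin. AT2G27630 had averages of 0.0381, 0.0581 and 0.0171 in toc90 and of 0.0133, 0.00499 and 0 in WT. For each of these genes the 3 mutant averages therefore lay above the 3 WT averages, as for 4.19% of all probes.

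The log2 differences that chose the genes leave zeros out. After quantile normalization of the columns they were 3.58 ± 0.55 for AT2G47390 and 2.85 ± 0.35 for AT2G27630 (SE). The first rests on 3 mutant and 6 WT readings and the second on 5 mutant and 3 WT readings. In that fit limma called 28 of 538 single-gene probes tested (5.2%) higher and 101 (18.8%) lower in toc90, at a Benjamini-Hochberg adjusted p under 0.05. Over all 2687 probes tested, 186 (6.92%) were called higher and 457 (17%) lower, and the median log2 difference was -0.21. That split depended on the scale, with 431 higher and 339 lower calls after median scaling, and 85 higher and 896 lower calls without scaling.

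How zeros were handled set the size of both differences. With the offset of 0.0274 added to every value before log2 and normalization, so that zeros count, the log2 difference was 1.04 ± 0.61 for AT2G47390 and 1.43 ± 0.33 for AT2G27630 (SE). With each zero raised to the smallest positive value in the table it was 2.23 ± 3.49 and 10.16 ± 2.87 for the same genes (SE). The first of these has an SE larger than itself. The order of the genes changed with the setting, since AT2G47390 had the larger difference when zeros were left out and AT2G27630 when they were counted.

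**Figure D3:**
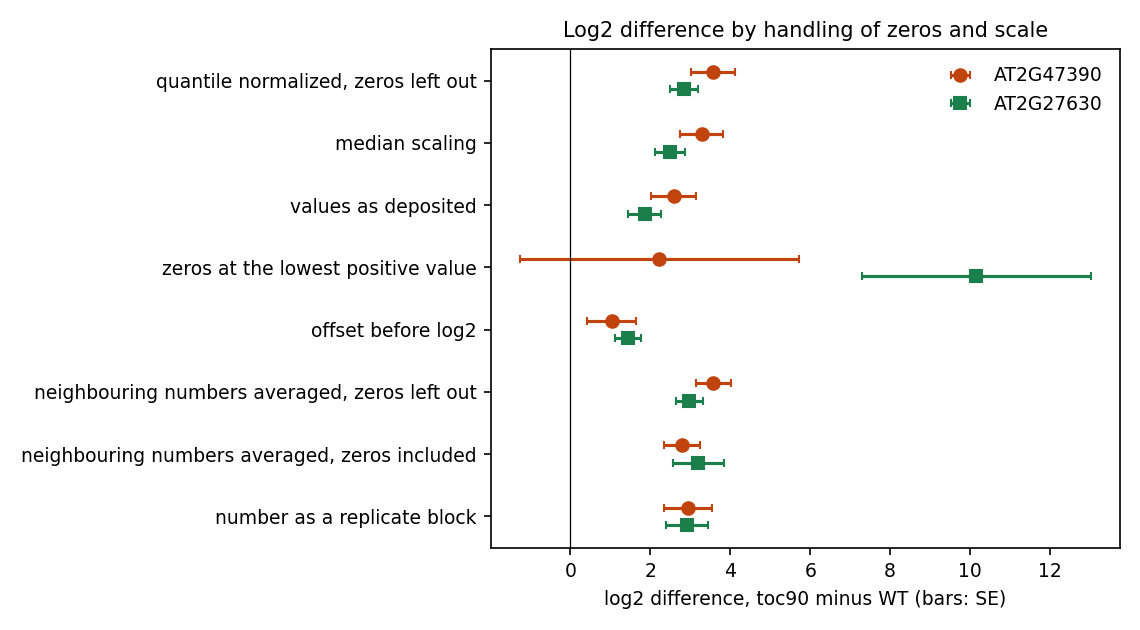
Log2 difference of toc90 minus WT (x axis, bars are SE) for AT2G47390 (circles) and AT2G27630 (squares) under 8 ways of treating zeros, scale and neighbouring readings (y axis). All 16 differences lie above 0, from 1.04 to 10.16, and the smallest of AT2G47390 is the one with an offset, in which zeros are counted.

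Of the 8 other probes within 5 probe numbers of AT2G47390, 3 also had even toc90 readings above their odd neighbours in every pair, an order found in 13.3% of all probes. They were the 3 single-gene probes among the 8, and the other 5 lacked that order. AT2G48090 had 0, 0.140, 0, 0.183, 0 and 0.00842 in toc90 readings 1 to 6, and 0.0412 to 0.140 in WT. Its zeros fell in the same 3 mutant readings as those of AT2G47390. AT1G02260, on the next probe number, had 0.262, 0.802, 0.319, 0.854, 0.743 and 1.02 in toc90, and 0.379 to 0.780 in WT. AT4G40080 had 0.106, 0.384, 0.101, 0.602, 0.296 and 0.482 in toc90, and 0.437 to 0.609 in WT. In the order given, the mean values of these 3 genes were 0.0552, 0.667 and 0.328 in toc90, against 0.0746, 0.637 and 0.541 in WT. Of the 3, AT1G02260 had a mean above that of WT, and the others did not. The part of the place on the array in the values of AT2G47390 was not tested.

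Around AT2G27630, 0 of 9 probes within 5 numbers had that order. AT1G49940, on the probe number before it, was at 0 in toc90 readings 4 and 6 and in WT readings 4 and 6, and had means of 0.0186 in toc90 and 0.0247 in WT. AT3G52960, which encodes a chloroplast peroxiredoxin, was at 0 in toc90 readings 2 and 6 and had means of 0.0190 in toc90 and 0.0505 in WT. AT4G38490 had means of 0.697 in toc90 and 0.565 in WT. Among the 9 probes the mutant mean was above the WT mean for 3, against 26% of all probes.

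**Figure D4:**
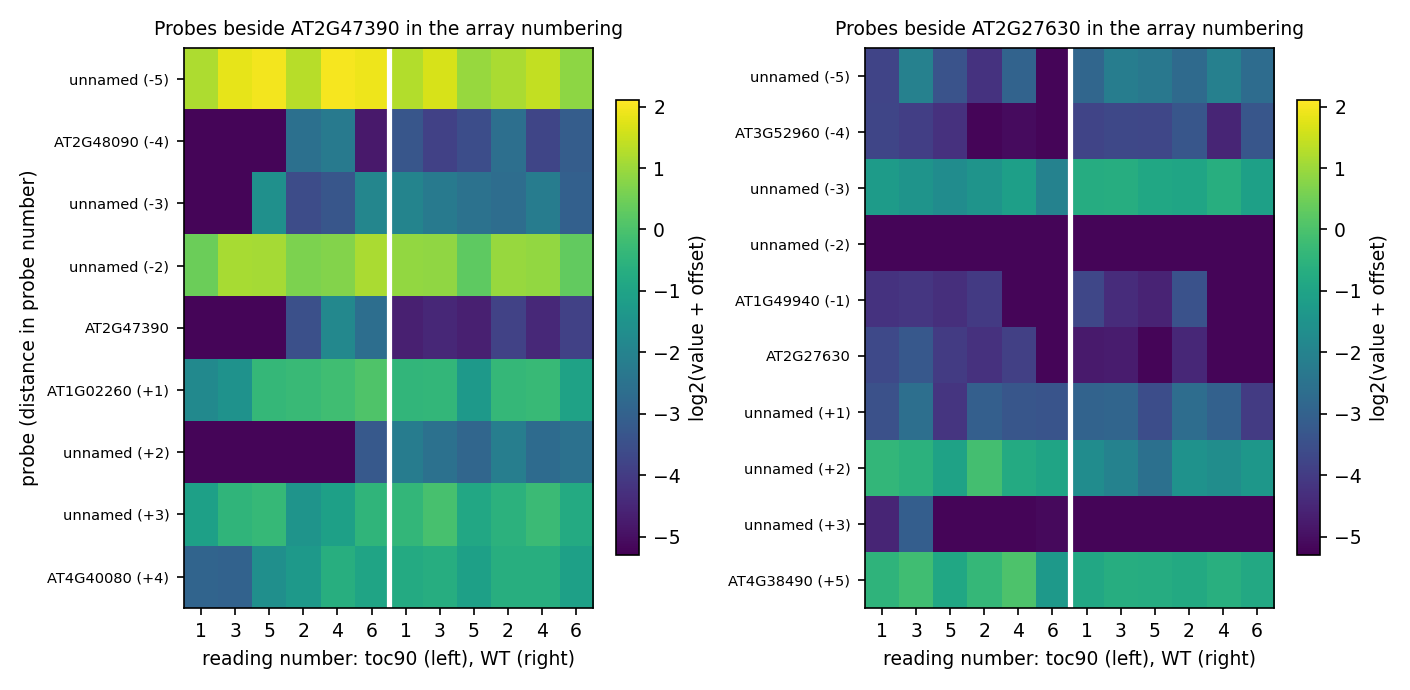
Values as log2(value + 0.0274) (colour) of the probes within 5 numbers of AT2G47390 (left panel) and AT2G27630 (right panel), 1 row per probe with its distance in probe number. Columns are readings 1, 3, 5, 2, 4 and 6 of toc90 and then of WT, and the darkest colour is a value of 0. AT2G47390 and AT2G48090 are both at 0 in toc90 readings 1, 3 and 5.

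Likeness over the 12 readings was taken as the Spearman correlation of deposited values. Only single-gene probes with at most 1 zero more than the gene compared were ranked. The genes most like AT2G47390, among 550 such probes, were AT4G13200 (0.89), AT1G02260 (0.81), AT2G43990 (0.78), AT4G29750 (0.74) and AT2G48090 (0.74). AT1G02260 and AT2G48090 are the neighbours in probe number described above. AT4G13200 and AT2G43990 belong to the 8 probes that were lower in the odd and higher in the even readings of the mutant. AT4G13200 had 0.0208, 0.326, 0, 0.580, 0.0936 and 0.353 in toc90, against 0.145 to 0.241 in WT. AT2G43990 had 0, 0.158, 0, 0.328, 0.00900 and 0.115 in toc90, against 0.0450 to 0.102 in WT. In each of them the low mutant readings were numbers 1, 3 and 5, an order that ranking by likeness to AT2G47390 favours.

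The genes most like AT2G27630, among 563 single-gene probes under the same limit on zeros, were AT1G31220 (0.78), AT2G19280 (0.77), AT4G22830 (0.74), AT1G17160 (0.70) and AT4G38040 (0.69). AT1G31220, which encodes a formyltransferase of purine synthesis, had a mean of 0.231 ± 0.0725 in toc90 and 0.133 ± 0.0174 in WT (SD, n = 6 each). AT1G17160, which encodes a ribokinase, had a mean of 2.96 ± 0.577 in toc90 and 1.7 ± 0.171 in WT (SD, n = 6 each). All 5 had a higher mean in the mutant, and none had a reading at 0. The higher means follow in part from the ranking, which spans both groups, because AT2G27630 was itself chosen as higher in the mutant. These correlations describe 12 readings that share columns.

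Few other plastid proteases could be tested, too few to set their calls apart from the shares over all probes. Of 58 genes listed as proteases, peptidases and their partners in the plastid, 6 were on single-gene probes and 5 could be tested, of which 0 were called higher and 1 lower in toc90, against 6.92% and 17% of all probes. The median log2 difference of the 5 was -0.10, against -0.21 over all probes tested. The list as drawn up includes the Clp and FtsH families, the Deg proteases and the peptidases that process or clear transit peptides. Most of these were not read on a single-gene probe. The 6 that were are AT3G27110, AT2G03390, AT1G68660, AT5G46390, AT3G02450 and SPPA. No Deg protease and no peptidase of transit peptides is among them.

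The called gene was AT3G27110, which encodes the plastoglobule metallopeptidase PGM48, known from leaf senescence. Its values in toc90 were 0.128, 0.0669, 0.0593, 0.120, 0.138 and 0.136, and in WT 0.504, 0.469, 0.470, 0.408, 0.368 and 0.394. All 6 mutant readings lay below every WT reading, in odd and even numbers alike. That was true of 19.9% of all probes. Its log2 difference was -1.65 ± 0.29 (SE, n = 6 each, limma adjusted p = 0.0022), and it ran from -2.08 to -1.13 over the other scalings and treatments of zeros. With neighbouring numbers averaged the difference was the same at -1.65 but the limma adjusted p was 0.0666, and it was 0.0746 with zeros included in the averages.

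The other tested members did not pass. AT2G03390, which encodes the Clp adaptor ClpF, had a mean of 0.146 ± 0.109 in toc90 and 0.196 ± 0.0363 in WT (SD, n = 6 each, log2 difference -0.09, limma adjusted p = 0.885). AT1G68660, which encodes its partner ClpS1, had a mean of 0.101 ± 0.0985 in toc90 and 0.0987 ± 0.0307 in WT (SD, n = 6 each, log2 difference 0.77, limma adjusted p = 0.33). The mutant readings of both spread more widely than those of WT and covered their range. AT5G46390, which encodes a carboxyl-terminal processing peptidase, had a mean of 0.0286 ± 0.0222 in toc90 and 0.0742 ± 0.0338 in WT (SD, n = 6 each, log2 difference -0.19, limma adjusted p = 0.831). AT3G02450, which encodes an FtsH-like protein, had a mean of 0.0303 ± 0.0313 in toc90 and 0.0650 ± 0.0344 in WT (SD, n = 6 each, log2 difference -0.10, limma adjusted p = 0.923). The signs of these 4 differences turned in at least 1 other setting, such as 0.27 with an offset for AT2G03390 and -0.11 with values as deposited for AT1G68660.

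SPPA, which encodes a protease of the thylakoid membrane, was not tested because 5 of its 6 WT readings were at 0. Its values in toc90 were 0.0507, 0.0194, 0.0404, 0.0238, 0 and 0, and its remaining WT reading, number 2, was 0.0205. Like AT2G27630 it had more positive readings in the mutant at a level close to 0, with 3 of 6 above every WT reading.

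**Figure D5:**
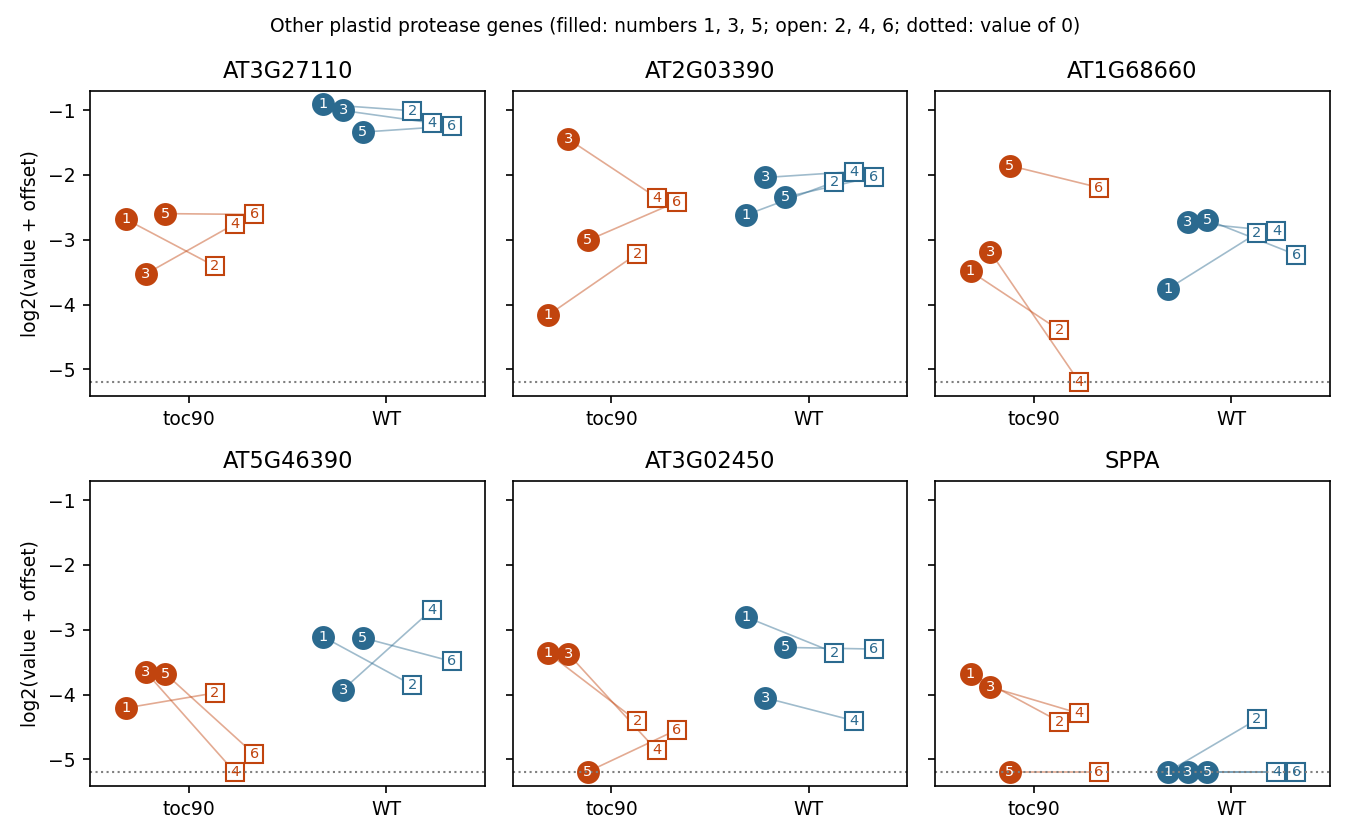
Values as log2(value + 0.0274) (y axis) of the 6 other plastid protease genes on single-gene probes, in toc90 and WT. Filled circles are readings 1, 3 and 5, open squares readings 2, 4 and 6, and the dotted line is a value of 0. AT3G27110 is the only one of the 6 whose groups do not overlap.

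Among genes with peptidase or protease in their symbol or synonyms, TPP2 was the only one besides SPPA on a single-gene probe. TPP2, which encodes tripeptidyl peptidase II, had toc90 values of 0, 0.112, 0, 0.299, 0.102 and 0.0915, and WT values from 0.124 to 0.206. It was at 0 in toc90 readings 1 and 3, as AT2G47390 was, and 5 of 6 mutant readings lay below every WT reading. It did not pass (log2 difference 0.39 with zeros left out, limma adjusted p = 0.265), and the sign turned to -0.37 with values as deposited, to -0.37 with an offset and to -4.30 with zeros at the smallest positive value. For AT2G27630, 276 genes of ubiquitin attachment, removal and the proteasome were listed, and 0 of them were on a single-gene probe. The match on symbols and synonyms misses genes without a telling name, such as the F-box gene FBL17 and the proteasome gene AT5G23540, which were on single-gene probes but had too few positive values to be tested. No comparison with that pathway was made. Both members lie on chromosome 2, and the protein-coding genes on either side of them, CP12-1 and AT2G47380 beside AT2G47390 and AT2G27610 and AT2G27650 beside AT2G27630, were not on single-gene probes either.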

How the data were processed

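Per the labels, total RNA of each sample was read in 1 channel of an array. The deposited values are array intensity values of unstated scale, from 0 to 100; the scanner, background step, scaling and averaging of spots used by the authors are not stated. Groups and numbers were taken from sample titles. No 2 columns were identical. Genes were named through the platform annotation and a gene table of TAIR10.1, which matched 690 of 692 single-gene probes. Coordinates served only to find the protein-coding genes on either side of each member.

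After taking log2, with zeros treated as missing, the columns were quantile normalized. Probes with at least 3 values per group (2687, with 752 not tested) were fitted in R 4.3.3 with limma 3.58.1 (lmFit, eBayes), two-sided, with Benjamini-Hochberg adjustment over all of them. The fit was tested on simulated data of independent normal values, with no zeros and no normalization step. That test therefore does not cover zeros or likeness between neighbouring numbers. The members and lists were chosen with earlier results of these data known. The description lists could be matched on symbols and synonyms alone, since no table used here gave descriptions. Genes named were the members, called list members, up to 3 uncalled members of each list with the highest means, the 5 most correlated single-gene probes, and single-gene probes within 5 numbers; AT3G02450 completes its list, FBL17 and AT5G23540 show what the match misses, and AT3G02450 was named after its values were seen, and the genes beside the members on the chromosome are named without values. Alternatives covered scaling, zeros, an offset at the 10th percentile of positive values, a filter on the dimmest 25% of probes, averaged neighbours, the number as a block and each reading left out. Figures used matplotlib 3.10.9 in Python 3.11.15.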

Additional observations from a re-analysis of the deposited data

Results flagged for a closer look

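Of 18 sets of 6 readings looked at, 2 had a reading far from the others. The rule flags about 1 in 20 sets of normally spread values, a rate that does not hold for sets with many zeros. Reading 2 of SPPA in WT was 0.0205 while the other WT readings were at 0, so any positive value there would have been flagged. Reading 4 of TPP2 in toc90 was 0.299, against 0.112 for the nearest and 0 for the lowest mutant reading.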

How the results depend on the processing

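No log2 difference of either gene was taken with the dimmest probes filtered out, so that setting was not tested for them. Both genes kept a positive log2 difference in the other alternatives run, from 1.04 to 3.83 for AT2G47390 and from 1.43 to 10.16 for AT2G27630. Those that moved were values as deposited (2.59 and 1.86), zeros raised to the smallest positive value (2.23 and 10.16) and the offset (1.04 and 1.43), for AT2G47390 and AT2G27630 in that order. Leaving out single readings gave 3.39 to 3.83 and 2.73 to 2.95, each from 9 of 12 readings because the others left too few values. In deposited units, the difference of AT2G47390 (0.0508) was 0.126 with zeros left out, 0.119 with columns scaled to the same median, ran from 0.0151 to 0.0658 with single readings left out, and reversed to -0.0142 in readings 1, 3 and 5, an alternative chosen after seeing the data. That of AT2G27630 (0.0317) was 0.0620 with columns scaled to the same median. Against 643 calls over all probes (186 higher and 457 lower, 28.9% higher), values as deposited gave 981 (85 and 896), zeros raised to the smallest positive value 258 (142 and 116), averaged neighbours 106 (31 and 75), and averages with zeros included, added after seeing the data, 68 (22 and 46). Median scaling gave 431 higher and 339 lower calls, the offset 284 and 334. Single readings left out gave 475 to 620 calls. With a replicate block for the number, 418 probes were called (118 and 300), with log2 differences of 2.94 for AT2G47390 and 2.92 for AT2G27630; correlations between toc90 and WT readings of the same number ran from 0.08 to 0.25, 12 of 12 best with their own number. The plastid protease list had 1 call, and 0 in both settings with averaged neighbours. The ubiquitin list, matched on symbols and synonyms, gave no result because it had no tested member. Values near 0 limit what can be said of either gene. The cause of these differences was not tested.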

Other observations

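The 18 probes with opposite and non-overlapping differences in odd and even readings were looked at by probe number, after their values had been seen. Of the 10 that were higher in readings 1, 3 and 5 and lower in 2, 4 and 6 of toc90, the unnamed probes 1718, 1721, 1723 and 1726 lay within 8 numbers of each other. Their differences on the log2 scale with an offset were 0.83, 1.28, 1.62 and 1.94 in the odd readings and -2.38, -1.50, -1.71 and -1.39 in the even ones. Of the 8 with the order of AT2G47390, probes 1838 and 1841 lay 3 numbers apart.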
